A study of Mus musculus with 4 samples.

Results

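The mouse mitochondrial genome carries 37 genes, and all of them were taken, by their position on the mitochondrial chromosome in GENCODE M21, from the 52636 genes of the count table. They comprise 13 mRNAs, 2 rRNAs and 22 tRNAs on a circle of 16299 bases (GRCm38). The RNA came from hippocampus of wild-type C57BL/6 mice at postnatal day 40, in a study that sought the mRNA targets of YTHDF2, a reader of methylated adenosine in mRNA. Of the 4 samples, 2 are YTHDF2 immunoprecipitates, not analysed here, and 2 are inputs, which share strain, genotype, tissue and age and received no immunoprecipitation. All values below are those of the 2 input libraries, called deeper (3334451 counts) and shallower (2563069 counts). A single group allows neither tests nor p-values, and as no label gives the inputs separate animals, the SD over 2 libraries may be technical.

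Mitochondrial DNA is transcribed from both strands into long RNAs that span many genes. The tRNAs lie between most of the mRNAs and rRNAs, and their removal by endonucleases frees the RNAs on either side. The mRNAs encode core subunits of respiratory chain complexes I, III, IV and V, every other subunit being encoded in the nucleus, and in neurons this chain supplies much of the ATP that restores ion gradients after firing. Because genes of 1 strand start out in the same long RNA, differences in level among them are usually ascribed to processing and stability after transcription.

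Each of the 37 genes had at least 1 count in both libraries. CPM scales the counts of each library to a sum of 1000000, and the upper limit that 0 counts leave, 3 counts, corresponds to 0.900 CPM in the deeper and 1.17 CPM in the shallower library. FPKM, CPM divided by gene length in kilobases, is used wherever genes are set against each other. The length behind it was the annotated span for 37 of 37 mitochondrial genes (tolerance 0.01 bases). Intervals are exact 95% intervals and cover counting error only, since PCR copies are not independent molecules. Markers of pyramidal and dentate granule neurons, astrocytes and oligodendrocytes all averaged 20 CPM or more over the 2 libraries, as did 4 of 6 interneuron markers (not Pvalb and Vip) and 3 of 4 microglia markers (not P2ry12). Endothelial, choroid plexus and blood markers each averaged less. The 4 haemoglobin genes summed to 50.1 CPM in the deeper and 55.0 CPM in the shallower library, and Folr1 of choroid plexus and Alb of liver had 0 counts in both.

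A stretch of chromosome 1 bears on most of these values. It runs over chr1:24611535-24616184 and its minus strand matches bases 6394 to 11042 of the mitochondrial genome, a nuclear copy of mitochondrial DNA that lies in the GRCm38 reference. Across 4650 bases it differs by 1 substitution, T9461C (the mitochondrial base, its position on the mitochondrial genome, then the chromosome 1 base), and by 1 extra A. The longest identical run is 3067 bases. Of the 37 genes 11 lie wholly inside the match, 6 mRNAs (mt-Co2, mt-Atp8, mt-Atp6, mt-Co3, mt-Nd3 and mt-Nd4l) and 5 tRNAs. A further 2 lie partly inside it, with 31% of the length of mt-Co1 and 63.6% of mt-Nd4. The sites of both differences are printed because a read that covers neither site has the same sequence on both chromosomes (RefSeq, GRCm38.p6). The first pair is the start of mt-Nd3, at bases 9441 to 9481 of the mitochondrial genome and at chr1:24613097-24613137, minus strand, with the differing base in capitals. The second covers the end of mt-Nd3 and the first part of mt-Tr, the arginine tRNA (bases 9808 to 9875), at bases 9801 to 9848 and at chr1:24612729-24612777, minus strand, with the run of A in capitals.
mt-Nd3 start, mitochondrial genome: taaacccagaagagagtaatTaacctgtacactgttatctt
mt-Nd3 start, chromosome 1 copy: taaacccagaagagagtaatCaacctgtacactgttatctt
mt-Tr first part, mitochondrial genome: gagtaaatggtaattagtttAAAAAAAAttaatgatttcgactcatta
mt-Tr first part, chromosome 1 copy: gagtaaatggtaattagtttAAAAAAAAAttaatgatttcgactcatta

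The 7 annotated pseudogenes of this stretch that reached 100 counts in a library also took many reads, and 4 of them had counts close to those of the gene they match. mt-Co2 had 3949 counts in the deeper and 1199 in the shallower library, and its copy Gm28661 had 3941 and 1219 in the same order. The mitochondrial gene thus held 50.1% (48.9 to 51.2) and 49.6% (47.6 to 51.6) of the summed counts of gene and copy. The shares were also near equal in 3 other genes that lie wholly in the match. mt-Co3 held 49.3% (48.6 to 50.1) of the sum with Gm28437 in the deeper library and 51.7% (50.2 to 53.1) in the shallower. For mt-Nd4l and Gm10222 the shares were 51.0% and 52.3%, and for mt-Nd3 and Gm28438, where the substitution lies, they were 52.7% and 51.3%. mt-Nd4, which is partly inside, held 68.8% and 69.8% of its sum with Gm28439. mt-Co1 held 90.3% and 90.9% of its sum with Gm29216, a pseudogene of the last part of the gene.

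mt-Atp6 stood apart from the others that lie wholly in the match. It had 642 counts in the deeper and 222 in the shallower library, and its copy Gm10925 had 4003 and 1227. The mitochondrial gene held 13.8% (12.8 to 14.9) and 15.3% (13.5 to 17.3) of the sum, so the copy was 6.24 and 5.53 times higher than the gene. On the mitochondrial genome mt-Atp6 overlaps mt-Atp8 by 43 bases and mt-Co3 by 1 base, whereas Gm10925 overlaps neither pseudogene beside it. mt-Atp8 has no annotated copy of its own on chromosome 1 in GENCODE M21. Reads placed at its nuclear match are thus in no gene of the table, apart from the 43 bases shared with mt-Atp6, which Gm10925 covers. How the counter treated reads with 2 placements or over 2 genes is not stated in the labels or headers, and its part in these values was not tested.

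**Figure D1:**
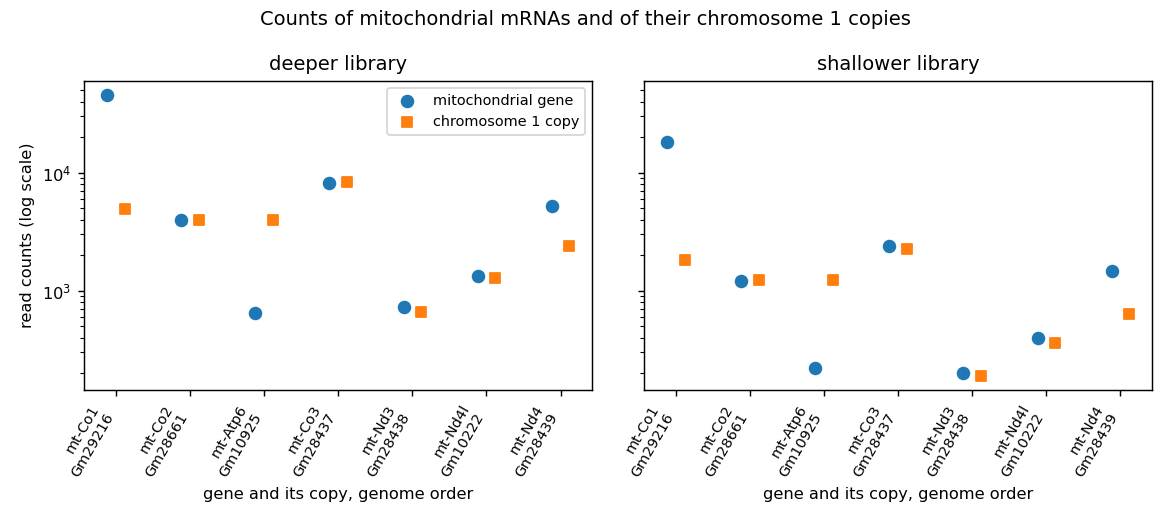
Read counts (log scale) of 7 mitochondrial mRNAs (circles) and of the chromosome 1 pseudogene that matches each (squares), in genome order, deeper library in the left panel and shallower in the right. Circle and square nearly coincide for mt-Co2, mt-Co3, mt-Nd3 and mt-Nd4l, the circle is higher for mt-Co1 and mt-Nd4, and for mt-Atp6 the copy is 6.24 and 5.53 times higher than the gene.

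Together the 7 copies held 25549 counts in the deeper and 7693 in the shallower library, which is 0.766% and 0.30% of all counts. Their log2 ratio of deeper over shallower was 1.5 (1.46 to 1.53), on the scale described for the mitochondrial genes below. Other nuclear copies took few counts. The 4 further pseudogenes that share at least 20% of their 31-base words with the mitochondrial genome summed to 25 and 15 counts. Gm13340 on chromosome 2, at chr2:22588103-22589647, spans the length of a whole mt-Co1 and shares 45.2% of these words, yet it had 18 and 7 counts. Levels below are therefore given for the mitochondrial gene as deposited and, where the order depends on it, with the copy's counts added.

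By RNA class, mRNAs held 79.5% of mitochondrial counts in the deeper library (79.3 to 79.7) and 80.0% in the shallower (79.6 to 80.4). The 2 rRNAs held 19.8% (19.6 to 20) and 19.1% (18.7 to 19.4), and the 22 tRNAs 0.679% (0.634 to 0.727) and 0.916% (0.830 to 1.01). Division among the classes was thus nearly the same in both libraries, apart from a larger tRNA share in the shallower one. By strand, the 28 plus-strand genes, read from the heavy-strand promoter, held 97.9% and 97.2% of counts. The 9 minus-strand genes, mt-Nd6 and 8 tRNAs, held 2.14% (2.06 to 2.23) and 2.82% (2.67 to 2.98). Whether the counting used strand is not given in the sources used here, so reads of a gene and of RNA antisense to it cannot be told apart.

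Both rRNAs lie at the start of the plus-strand unit and form the small (mt-Rnr1) and large (mt-Rnr2) subunits of the mitochondrial ribosome. mt-Rnr1 (bases 70 to 1024) had 3671 FPKM in the deeper and 1591 FPKM in the shallower library. mt-Rnr2 (bases 1094 to 2675) had 2361 and 1130 FPKM, so mt-Rnr1 exceeded it 1.56-fold and 1.41-fold. Mean rRNA FPKM was 1.47 and 1.44 times mean mRNA FPKM, or 1.46 ± 0.0219 (SD, n = 2). With the copies' counts added to the mRNAs the ratio was 1.07 and 1.10, and with mt-Co1 left out of the mRNAs it was 2.03 and 2.12. Neither rRNA has an annotated nuclear copy among the 11 pseudogenes examined, so the copies enter this ratio through the mRNAs only. The labels name total RNA, and whether rRNA was depleted or poly(A) RNA selected is not given in the sources used here.

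Complex IV, cytochrome c oxidase, had the highest mean mRNA level and the top 2 mRNAs, mt-Co1 and mt-Co3, while mt-Co2 ranked 5th in the deeper and 7th in the shallower library. mt-Co1 (bases 5328 to 6872), which encodes the subunit that holds the site of oxygen reduction, had 8841 FPKM in the deeper and 4594 FPKM in the shallower library. It ranked 9th and 13th in FPKM among the 6915 genes averaging 20 CPM or more. mt-Co3 (bases 8607 to 9390) had 3128 and 1198 FPKM. mt-Co2 (bases 7013 to 7696), whose protein takes up electrons from cytochrome c, had 1731 and 684 FPKM. The proteins of all 3 genes are present once in each enzyme. As deposited, mt-Co1 was 5.11 and 6.72 times higher than mt-Co2 and 2.83 and 3.84 times higher than mt-Co3. These folds were smaller with copies added. mt-Co1 then had 9789 and 5052 FPKM, mt-Co2 3459 and 1379 FPKM, and mt-Co3 6338 and 2317 FPKM. The 3 genes held 47.3% (47.0 to 47.6) and 49.1% (48.6 to 49.5) of mitochondrial counts, and 50.8% and 52.0% with copies added.

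Complex III, cytochrome bc1, has a single mitochondrial subunit. mt-Cytb (bases 14145 to 15288), the haem-bearing cytochrome b, had 2283 FPKM in the deeper and 1088 FPKM in the shallower library, and it lies outside the chromosome 1 match. It held 7.15% (7.0 to 7.29) and 7.18% (6.94 to 7.42) of mitochondrial counts, the steadiest share of any complex in these libraries.

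Complex I, NADH dehydrogenase, has 7 mitochondrial subunits of its membrane arm, and they held 23.8% (23.5 to 24.0) and 22.6% (22.3 to 23.0) of mitochondrial counts. mt-Nd1 (bases 2751 to 3707), which lies against the quinone site, was the highest as deposited, at 2182 FPKM in the deeper and 860 FPKM in the shallower library. With copies added, mt-Nd4l exceeded it in both, at 2650 and 988 FPKM. The pump subunits mt-Nd5 (bases 11742 to 13565) and mt-Nd2 (bases 3914 to 4951) had 1418 and 706 FPKM, and 1163 and 609 FPKM. All 3 lie outside the match. mt-Nd3 (bases 9459 to 9806) was the lowest of the complex, at 629 and 224 FPKM, and with its copy it had 1194 and 437 FPKM, above mt-Nd2 in the deeper library only.

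mt-Nd6 (bases 13552 to 14070, minus strand) is the only mRNA gene on its strand. Its level was 1164 FPKM in the deeper and 723 FPKM in the shallower library, inside the range of the plus-strand complex I mRNAs. It overlaps mt-Nd5 on the opposite strand by 14 bases, and mt-Nd5 was 1.22-fold its level in the deeper and 0.977-fold in the shallower library, so their order differed between libraries.

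Genes of 2 overlapping pairs are translated from shared mRNAs in mammals, and the overlaps are printed because they set which reads fit both genes (RefSeq, GRCm38.p6, plus strand, overlap in capitals). The first spans bases 7907 to 7989 and begins its capitals at the mt-Atp6 start codon. The second spans bases 10147 to 10193 and begins its capitals at the mt-Nd4 start codon, with an overlap of 7 bases.
mt-Atp8/mt-Atp6: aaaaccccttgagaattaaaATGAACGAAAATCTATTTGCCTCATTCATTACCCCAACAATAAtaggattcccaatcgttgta
mt-Nd4l/mt-Nd4: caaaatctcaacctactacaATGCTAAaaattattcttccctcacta

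Complex V, ATP synthase, takes 2 mitochondrial subunits, both in its membrane part, from the first pair. mt-Atp8 (bases 7766 to 7969) had 1322 FPKM in the deeper and 530 FPKM in the shallower library. mt-Atp6 (bases 7927 to 8607), the proton channel subunit, had 283 and 127 FPKM, the lowest of the 13 mRNAs. Although one RNA carries both, mt-Atp8 was 4.67 and 4.17 times higher than mt-Atp6. This order turned round with the copy's counts: mt-Atp6 plus Gm10925 had 2046 and 830 FPKM, 1.55 and 1.57 times mt-Atp8. The nuclear match of mt-Atp8 is not counted, apart from its overlap with mt-Atp6, which Gm10925 covers. The second pair was closer. mt-Nd4l (bases 9877 to 10173) had 1352 and 516 FPKM, and mt-Nd4 (bases 10167 to 11544) had 1147 and 416 FPKM. Their ratio was 1.18 and 1.24 as deposited and 1.59 and 1.66 with both copies added.

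Ordered by its share of the summed FPKM of the 13 mRNAs, mt-Co1 led with 35.3 ± 3.0% (SD, n = 2). It was followed by mt-Co3 at 10.7 ± 1.40%, mt-Cytb at 8.72 ± 0.206% and mt-Nd1 at 7.60 ± 0.835%. These steps, and that down to mt-Co2, were apart in both libraries. From mt-Co2 (6.03 ± 0.656%) through mt-Nd5, mt-Nd6, mt-Nd2 and mt-Nd4l to mt-Atp8 (4.64 ± 0.456%), each neighbour overlapped the next in its library values. mt-Nd4 (3.85 ± 0.648%), mt-Nd3 (2.09 ± 0.378%) and mt-Atp6 (1.05 ± 0.0178%) had lower means, each apart from the one before. mt-Nd4 (4.31% in the deeper and 3.39% in the shallower library) still overlapped mt-Nd4l (5.07% and 4.21%). From mt-Co1 to mt-Atp6 the span was 31.3-fold and 36.1-fold. With copies added, mt-Co1 (29.0 ± 3.29%) and mt-Co3 (15.8 ± 2.05%) still led, mt-Co2 came next at 9.0 ± 0.618%, and mt-Atp6 moved to 5.36 ± 0.302%. The span between the highest and lowest mRNA was then 8.42-fold and 11.6-fold.

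Levels showed little relation to position on the plus strand. Over the 12 plus-strand mRNAs, Spearman's rho between FPKM and gene order from the promoter was -0.049 in the deeper and -0.14 in the shallower library, given as a description over genes of 1 genome. Between the libraries, log10 FPKM of the 13 mRNAs had a Pearson r of 0.980 and FPKM a Spearman's rho of 0.907, with gene length, sequence and alignment in common.

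**Figure D2:**
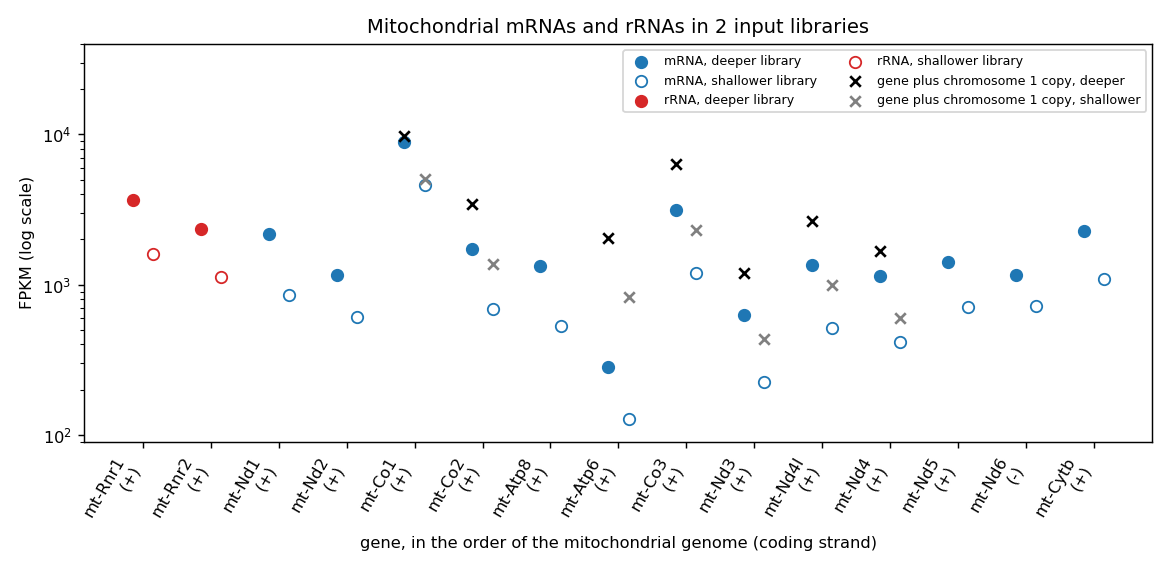
FPKM (log scale) of the 13 mRNAs and 2 rRNAs in the order of the mitochondrial genome, with the coding strand in brackets. Filled circles are the deeper library, open circles the shallower, and crosses the level with the chromosome 1 copy's counts added; mt-Co1 is highest at 8841 and 4594 FPKM and mt-Atp6 lowest at 283 and 127 FPKM, and the crosses lift mt-Atp6 to 2046 and 830 FPKM.

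The tRNA genes are 59 to 75 bases long, and they took few counts. Together they had 828 counts in the deeper and 407 in the shallower library. Per kilobase, mRNAs had 15.4 and 11.5 times the counts of tRNAs. Only 6 tRNA genes reached 20 counts in both libraries, and the other 16 had 1 to 51 counts in the deeper and 1 to 17 in the shallower. mt-Tf and mt-Tv, on either side of mt-Rnr1, had 1 and 1 count in the deeper library and 3 and 1 in the shallower, against 11691 and 3895 for the rRNA. Over the 22 genes, counts had a Spearman's rho of 0.955 between the libraries, which share gene length and sequence. Reads of a mature tRNA and of a longer RNA that runs across its gene cannot be told apart in these counts. Of 36 pairs of neighbouring genes, 9 overlap and 20 others abut or lie at most 1 base apart. Reads over a tRNA gene can thus also touch the gene beside it. How such reads were counted is not given, and its part in the tRNA counts was not tested. In the deeper library alone, 20 counts were reached by mt-Te (51 and 17 in the shallower), mt-Tp (41 and 16), mt-Tt (33 and 15), mt-Tm (27 and 12), mt-Tr (26 and 7) and mt-Tg (23 and 13). The other 10, mt-Tf and mt-Tv included with mt-Tw, mt-Ti, mt-Tl1, mt-Tk, mt-Tq, mt-Ts1, mt-Td and mt-Ts2, stayed at 19 counts or fewer in both.

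Of these 6, 4 are neighbours on the minus strand, in the cluster between mt-Nd2 and mt-Co1 that surrounds the light-strand origin of replication. The asparagine tRNA mt-Tn had 163 counts in the deeper and 78 in the shallower library, and the cysteine tRNA mt-Tc had 140 and 75. On their outer sides, the alanine tRNA mt-Ta had 99 and 44 counts and the tyrosine tRNA mt-Ty had 94 and 53. These 4 genes were the highest of the 22 in both libraries and held 496 of 828 and 250 of 407 tRNA counts. Per kilobase they had 6.72 and 7.16 times the counts of the other 18. Taken in order from mt-Tf to mt-Tp, neighbouring genes have their widest gap, 32 bases, between mt-Tn and mt-Tc. The stretch that closes the circle, from mt-Tp (ending at base 15422) to mt-Tf (starting at base 1), is longer. Sequences of the 4 cluster genes are printed because they carry most of the tRNA signal (RefSeq, GRCm38.p6, minus strand, anticodon in capitals). mt-Tn lies at bases 5089 to 5159, mt-Tc at 5192 to 5257, mt-Ty at 5260 to 5326 and mt-Ta at 5018 to 5086. The anticodons were found as the loop triplet between paired stems. This search gave the RefSeq position for 11 of 11 tRNAs compared, all on the plus strand. The 4 printed here, on the minus strand, were not among those compared.
mt-Tn: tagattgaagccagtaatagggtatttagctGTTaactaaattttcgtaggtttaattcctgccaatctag
mt-Tc: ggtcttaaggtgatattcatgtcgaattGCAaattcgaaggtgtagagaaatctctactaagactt
mt-Ty: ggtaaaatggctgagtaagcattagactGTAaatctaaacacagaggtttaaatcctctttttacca
mt-Ta: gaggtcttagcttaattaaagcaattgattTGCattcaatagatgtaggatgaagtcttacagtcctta

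The remaining member of the cluster, the tryptophan tRNA mt-Tw, is on the plus strand and had 19 and 9 counts. By strand, the 8 minus-strand tRNAs had 598 counts in the deeper and 290 in the shallower library, against 230 and 117 for the 14 plus-strand tRNAs. Per kilobase that is 4.51-fold and 4.30-fold higher on the minus strand. Without the 4 cluster genes, the minus-strand tRNAs (mt-Tq, mt-Ts1, mt-Te and mt-Tp) had 370 and 145 counts per kilobase, against 242 and 123 for the plus-strand tRNAs. On the plus strand, the histidine tRNA mt-Th with 35 and 20 counts and the leucine tRNA mt-Tl2 with 33 and 21 were the 2 others to reach 20 counts in both libraries. The share of each gene's 31-base words that occur somewhere in the nuclear genome was 100% for mt-Tn, mt-Ty and mt-Th, 63.9% for mt-Tc, 53.8% for mt-Ta and 9.76% for mt-Tl2. It was also 100% for tRNAs with fewer counts, such as mt-Tw, mt-Ts1, mt-Td and mt-Tk. A share of 100% thus did not always go with high counts. In the deeper library mt-Te, with 51 counts, had 100%, and mt-Tf, mt-Tv and mt-Ts2, with 1 count each, had 0%. mt-Tp, with 41 counts there, also had 0%. Whether the share followed the counts over all tRNA genes was not tested. A diverged copy on chromosome 2 matches bases 4441 to 7449, which include the cluster. Another on chromosome 5 matches bases 4850 to 5181, which include mt-Tw, mt-Ta and mt-Tn, and shorter matches to the cluster lie elsewhere.

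**Figure D3:**
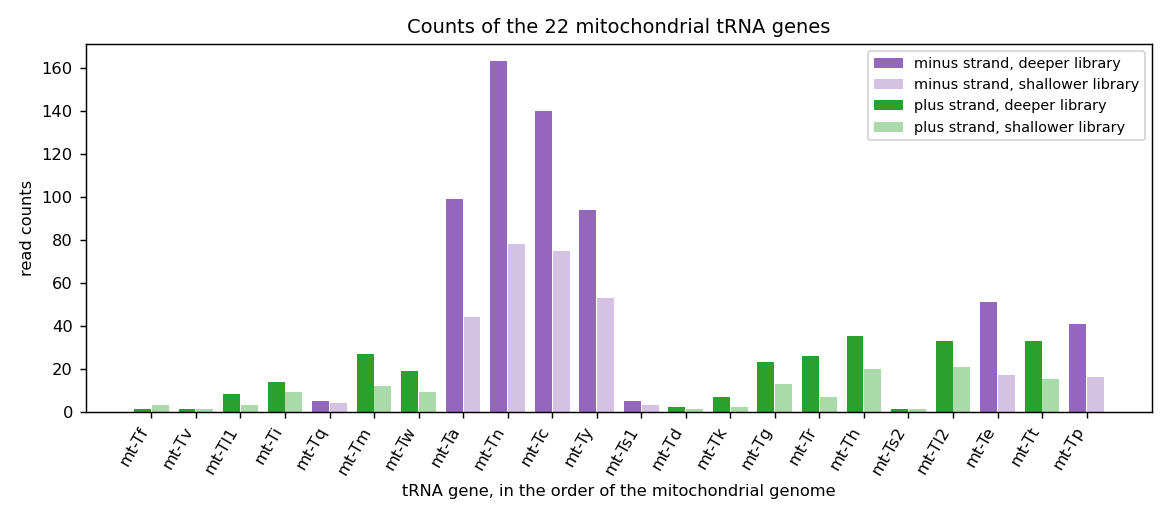
Read counts of the 22 tRNA genes in the order of the mitochondrial genome, with the deeper library as the left, dark bar and the shallower as the right, pale bar; purple is the minus strand and green the plus strand. mt-Ta, mt-Tn, mt-Tc and mt-Ty form a peak of 94 to 163 counts in the deeper and 44 to 78 in the shallower library.

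Between the libraries, mitochondrial genes differed more than nuclear ones. The ratio of deeper over shallower is taken on log2(CPM + 0.5) with TMM factors, and its median over the 6915 genes averaging 20 CPM or more was 0.04. Of the 19 mitochondrial genes at that level, 14 were at least 2-fold higher in the deeper library (12 mRNAs and both rRNAs), against 1.98% of all genes, and 0 were at least 2-fold lower, against 1.95%. The remaining 18 genes, all tRNAs, were below that level. In all, mitochondrial genes held 3.65% (3.63 to 3.67) of counts in the deeper and 1.73% (1.72 to 1.75) in the shallower library. In bulk tissue, more mitochondrial RNA per cell and more cells rich in it cannot be told apart. Nor can either be told apart from a technical difference between the libraries.

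The difference was not uniform along the genome. The summed log2 ratio was 1.21 (1.19 to 1.23) for mRNAs and 1.28 (1.24 to 1.31) for rRNAs, and lower, 0.79 (0.62 to 0.96), for tRNAs. mt-Co1, with a ratio of 1.09, held 45546 of the 96890 mRNA counts in the deeper library. By the median over genes, mRNAs had 1.46, rRNAs 1.28 and tRNAs 0.62, so the order of mRNAs and rRNAs depended on the measure. In sum, the plus-strand genes had 1.23 (1.21 to 1.25) and the minus-strand genes 0.83 (0.73 to 0.92), so those counting intervals do not overlap. mt-Nd6, at 2015 and 962 counts, had a ratio of 0.83 (0.72 to 0.94), the lowest of the 13 mRNAs. The plus-strand tRNAs, however, were also low, at 0.73 (0.41 to 1.07), close to the minus-strand tRNAs at 0.81 (0.60 to 1.02).

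Among plus-strand mRNAs the ratios fell into runs of neighbours. From mt-Co2 to mt-Nd4 all 7 lay between 1.29 (mt-Atp6) and 1.63 (mt-Nd3). mt-Nd2 and mt-Co1 before them had 1.08 and 1.09, and mt-Nd5 and mt-Cytb after them 1.15 and 1.21. The 6 mRNAs wholly in the chromosome 1 match summed to 1.51 (1.46 to 1.56), against 1.20 (1.17 to 1.24) for the 5 outside it. Those 5 include the minus-strand mt-Nd6, at 0.83, so this contrast also mixes the strands. mt-Nd1, outside the match and near the promoter, had 6962 and 2110 counts and a ratio of 1.49 (1.42 to 1.56), so a high ratio was not confined to the matched stretch. Over the 13 mRNAs the ratio had a Spearman's rho of -0.0055 with GC content and -0.313 with length, given as descriptions.

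**Figure D4:**
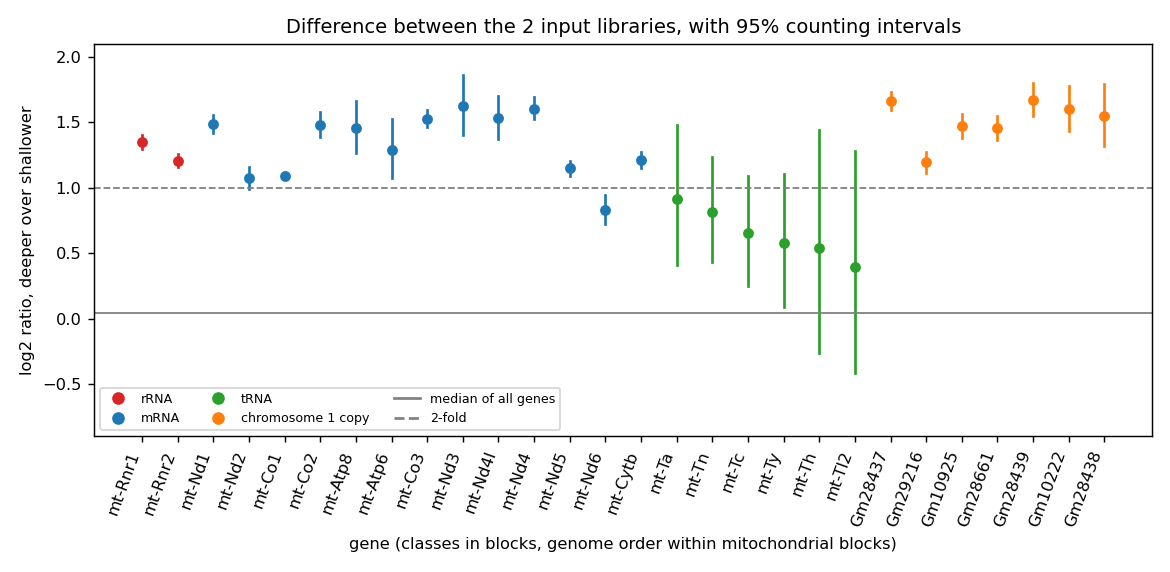
Log2 ratio of the deeper over the shallower library, with 95% counting intervals, for the 2 rRNAs (red), 13 mRNAs (blue), the 6 tRNAs at 20 counts or more in both libraries (green) and the 7 chromosome 1 copies (orange). The grey line is the median of all genes, 0.04, and the dashed line is 2-fold; 12 mRNAs and both rRNAs lie above the dashed line, mt-Nd6 and the 6 tRNAs below it.

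Nuclear genes for the same complexes were lower in level, and their median ratio was close to that of all genes. Per length, the mitochondrial mRNAs of complex I had a median of 1164 FPKM in the deeper and 609 FPKM in the shallower library, against 13.9 and 14.0 FPKM for 37 nuclear subunits. For complex IV the medians were 3128 and 1198 FPKM, against 7.10 and 9.60 FPKM for 13 nuclear subunits. For complex V they were 802 and 328 FPKM, against 10.9 and 12 FPKM for 17. mt-Cytb stood at 2283 and 1088 FPKM, against a median of 41.2 and 39.5 FPKM for 9 nuclear subunits of complex III. Complex II, succinate dehydrogenase, has nuclear subunits only, with a median of 27.8 and 30.8 FPKM over 4. The 13 nuclear genes of complex IV include Cox4i2, with 0 counts in both libraries, and 4 of the 13 averaged 20 CPM or more. Pseudogenes of the nuclear subunits were not examined, so the nuclear medians leave out any reads placed there.

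The highest nuclear subunit was Atp5b, the catalytic beta subunit of ATP synthase, at 602 FPKM in the deeper and 604 FPKM in the shallower library. Of the 13 mitochondrial mRNAs, 12 lay above it in the deeper and 8 in the shallower. The others named by level were Atp5a1 (146 and 264 FPKM), Cox4i1 (317 and 322), Cox8a (239 and 321), Sdha (187 and 166), Sdhc (30.0 and 32.5), Uqcrc1 (125 and 110), Uqcrfs1 (60.5 and 72.1), Ndufs1 (97.2 and 69.9) and Ndufb10 (55.1 and 106). Mitochondrial genes held 91.5% of the counts of all respiratory chain mRNAs listed in the deeper library and 82.2% in the shallower. Of 80 nuclear subunits matched, 32 were at 20 CPM or more, with a median log2 ratio of -0.04, and 1 passed 2-fold upward (Atp5g3, 261 counts in the deeper and 80 in the shallower library) and 1 downward (Atp5g1, 42 and 89), against 1.98% and 1.95% of all genes. A single gene in each direction of 32 is no result about the list. Those 2 genes encode the same mature c subunit of ATP synthase.

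**Figure D5:**
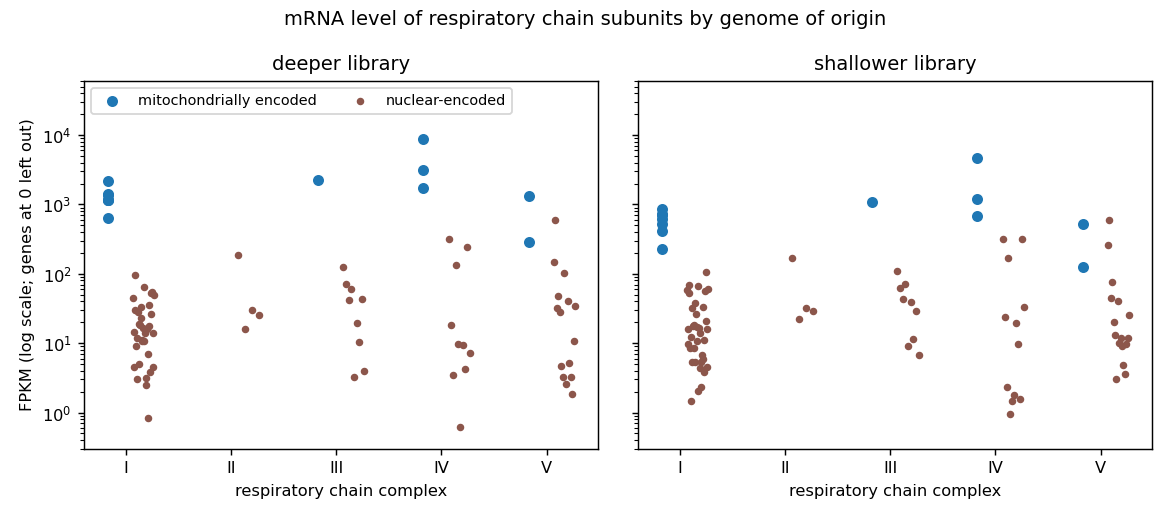
FPKM (log scale) of respiratory chain subunits by complex, mitochondrially encoded in blue and nuclear-encoded in brown, with the deeper library left and the shallower right. Nuclear genes at 0 (8 in the deeper, 3 in the shallower library) are left out; 12 and 8 of the 13 blue points lie above the highest brown one, Atp5b at 602 and 604 FPKM.

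Nuclear genes that replicate, transcribe, process and translate the mitochondrial genome were at low levels. Of 77 matched, 14 were at 20 CPM or more, 0 of which passed 2-fold upward in the deeper library and 1 downward, Iars2, the mitochondrial isoleucyl-tRNA synthetase (40 and 98 counts), against 1.98% and 1.95% of all genes. So small a count is likewise no result about the list. Their median log2 ratio was -0.18, against 1.46 for the 13 mitochondrial mRNAs. Highest by group were the DNA polymerase Polg (17.8 and 28.0 FPKM) and the transcription and ribosome factor Mterf3 (13.3 and 9.57). RNA processing was led by Fastk (33.1 and 42.5 FPKM) and the RNA granule protein Grsf1 (23.4 and 21.2). Translation factors were led by the initiation factor Mtif3 (11.3 and 13.8 FPKM) and the ribosome recycling factor Gfm2 (9.83 and 13.8), and tRNA synthetases by Kars (16.1 and 16), which serves cytosol and mitochondria, and Fars2 (11.2 and 16.7).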

How the data were processed

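Counts of reads per gene and FPKM were deposited for 2 input libraries, per the file headers. From their values the counts are raw and FPKM is the count over library total and gene length. BWA 0.7.12, MACS2 2.1.0, HOMER and GRCm38 are named, per the submitters' processing notes, with no role stated; the counter, its strand and multi-mapping settings and the annotation of the counts are not given in the labels or headers. Column numbers are not both replicate numbers of the titles, so libraries are named by depth.

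CPM, FPKM shares and log2 ratios were computed with Python 3.11.15 and scipy 1.17.1. TMM factors (0.951 in the deeper, 1.05 in the shallower library) came from edgeR 4.0.16, and DESeq2 1.42.0 size factors were an alternative. Shares have exact binomial intervals and levels exact Poisson intervals. Shared 31-base words were counted between the mitochondrial and nuclear sequence of GRCm38; pseudogenes sharing at least 20% were examined. The ratio computation, without TMM factors and with a filter on pooled counts, was tested on simulated data.

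All 37 members are described, tRNAs singly at 20 counts or more in both libraries; of pseudogenes with at least 100 counts the 5 highest are named, and of other lists the 2 members highest in mean FPKM. Gm10222, Gm28438, Gm13340, the tRNAs named below 20 counts and the nuclear genes past 2-fold were named after their values were seen. The members and lists were chosen with earlier results of these data known. Alternatives were another normalization, added constant, filter, denominator and set of mRNAs, counts of copies added, and each library alone.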

Additional observations from a re-analysis of the deposited data

How the results depend on the processing

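Adding the counts of the nuclear copies had the most effect: mean rRNA FPKM was then 1.08 times mean mRNA FPKM, against 1.46 as deposited, complex IV held 51.4% of mitochondrial counts, against 48.2%, and the span from highest to lowest mRNA was 9.99-fold, against 33.7-fold, the last an alternative chosen after seeing the data. Over the 6 mRNAs that overlap no other mRNA, the span was 17.3-fold; the alternative's own construction leaves out mt-Atp6. The other 14 of 18 alternatives kept their values within the spread or within 1.5 times. The rRNA ratio and the complex IV share with copies added were also within 1.5 times, but lay outside the range of the single libraries. The count of mitochondrial genes at least 2-fold higher in the deeper library was 14, 12 without TMM factors (mt-Nd2 and mt-Co1 were then below 2-fold, and the median log2 ratio of all genes was -0.10 in place of 0.04), 14 with DESeq2 size factors or with 1 added to CPM, 17 at a mean of at least 5 CPM and 18 with no filter. The median log2 ratio of mRNAs was 1.46, and 1.31 to 1.49 under its alternatives; the 1.49 rests on mt-Nd1 alone, the only mRNA with under 1% of its words in nuclear transcripts. Mitochondrial genes held 2.69% of counts as a mean, 2.85% among protein-coding genes and 3.23% with copies. The tRNA share of mitochondrial counts was 0.798%, and 0.713% over the 16 tRNA genes that overlap no other gene. With a single library, the ranges were 1.73 to 3.65% for the mitochondrial share, 1.44 to 1.47 for rRNA over mRNA, 0.679 to 0.916% for tRNAs, 31.3 to 36.1 for the span and 47.3 to 49.1% for complex IV. No paired analysis was possible because the values come from 1 group and no test was made. Depth limits the tRNAs most: 7 of 22 had 3 counts or fewer in a library, and the order among these 7 was not detectable at this depth.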
